A study of Canis lupus familiaris with 36 samples.

Results

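CLBL-1 is an established line of dog lymphoma cells of the B lineage, and the account here concerns cells incubated for 24 h with 5 µM AS-605240 (AS) alone, set against cells incubated for 24 h with DMSO alone. Its 6 libraries, 3 with AS and 3 with DMSO, were chosen by the names of the columns of the count table and are 6 of 36 in the series. The other libraries hold the same cells with 1 µM Ibrutinib (Ibr) or with both inhibitors (Ibr + AS), and each treatment was sampled at 24, 48 and 72 h. Replicates 1, 2 and 3 are cells of passages p121, p126 and p128, and each passage has its own AS and DMSO library at each time. Control cells received the amount of DMSO of the combined treatment. The methods do not state whether cells with AS alone were brought to that amount. If they were not, effects of AS and of the amount of DMSO cannot be told apart. All libraries come from one established line, with cells of 2 wells per treatment. The p-values below rest on the spread between replicate libraries that is left once passage is allowed for, estimated over all treatments and times. They concern that line only. The public labels of DMSO 24 h replicate 3 disagree, with p126 in one field and p128 in another, and p128 was used.

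Phosphoinositide 3-kinases (PI3Ks) phosphorylate membrane lipids after receptors such as the B-cell receptor (BCR) are engaged, and the lipids recruit AKT and other kinases. AKT in turn restrains FOXO transcription factors and, through mTOR, promotes protein synthesis, amino acid supply and lipid synthesis. AS-605240 inhibits PI3K with preference for the gamma isoform, the catalytic subunit encoded by PIK3CG, which is prominent in leukocytes. Ibrutinib inhibits Bruton's tyrosine kinase (BTK), another kinase downstream of the BCR.

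The libraries held between 11476931 and 12816887 reads on genes with AS and between 10910175 and 14703839 with DMSO. The 50 most abundant genes took 18.2% to 19.1% of the reads with AS and 16.7% to 17.1% with DMSO, ranges that did not overlap. Levels are given in CPM, read counts scaled to library size with edgeR's TMM factors, and they are shares of each library, so that fewer cells of a type and less RNA per cell cannot be told apart. B-cell markers were present: TNFRSF13C, the receptor for the survival factor BAFF, lay between 103 and 129 CPM with DMSO and between 123 and 131 CPM with AS. TCF4, a transcription factor of B-lineage cells, lay between 85 and 95.7 CPM and between 95.8 and 103 CPM. Together with the class II gene DLA-DRA, these 3 of 8 B-cell markers that could be read summed to 2844 to 2901 CPM with DMSO and to 3461 to 3752 CPM with AS, without overlap. DLA-DRA made up most of these sums and was not among the genes called below, and the TNFRSF13C groups overlapped. The 4 readable T and NK cell markers (CD226, TCF7, IFNG and IL2RB) reached at most 2 reads in any of the 6 libraries. Myeloid markers (TREM2, LYZ and DCSTAMP) summed to 77.7 to 92.4 CPM with DMSO and 88 to 99.2 CPM with AS, with overlap, and the 6 stromal markers to 4.1 to 6.24 CPM and 3.23 to 5.23 CPM. Few genes carry these sums: 1 of the 3 myeloid markers had no reads, and 5 of the 6 stromal markers had at most 3 reads in each library.

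AS alone changed few genes strongly and a larger number slightly at 24 h. The change with the smallest p-value was a rise of ENSCAFG00000020252, a gene not paired with a symbol here, to 2.9 times its control level. Among the called genes with a symbol, RASGEF1C and PLXNB2 rose most. Methionyl- and asparaginyl-tRNA synthetase, the mitochondrial chaperone HSPA9, WDR46, PWP1 and squalene epoxidase fell most, by 23% to 27%. Without passage p128 only HSPA9 and the asparaginyl-tRNA synthetase of these were still called, and without p121 that synthetase and squalene epoxidase were not. Of 18670 genes tested, 471 reached an adjusted p-value (Benjamini-Hochberg) no higher than 0.05 in edgeR's quasi-likelihood test (fitted over 35 libraries, without Ibr 72 h replicate 3), 278 of them higher with AS (1.49% of the genes tested) and 193 lower (1.03%). A differentially expressed gene (DEG) also had a log2 fold change (FC) beyond 1 in either direction. The DEGs numbered 37, with 27 higher (0.145%) and 10 lower (0.0536%), so that 434 of the 471 genes (92.1%) changed by 2-fold or less. On simulated data the adjusted p-value alone passed more unchanged genes than its level, so the 471 may hold an excess of false calls. Of the 471, 137 were also called without passage p128, 311 without p126 and 267 without p121. The median log2 FC was 0.47 among the 278 genes and -0.42 among the 193, while that of all genes tested was 0.01.

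**Figure D1:**
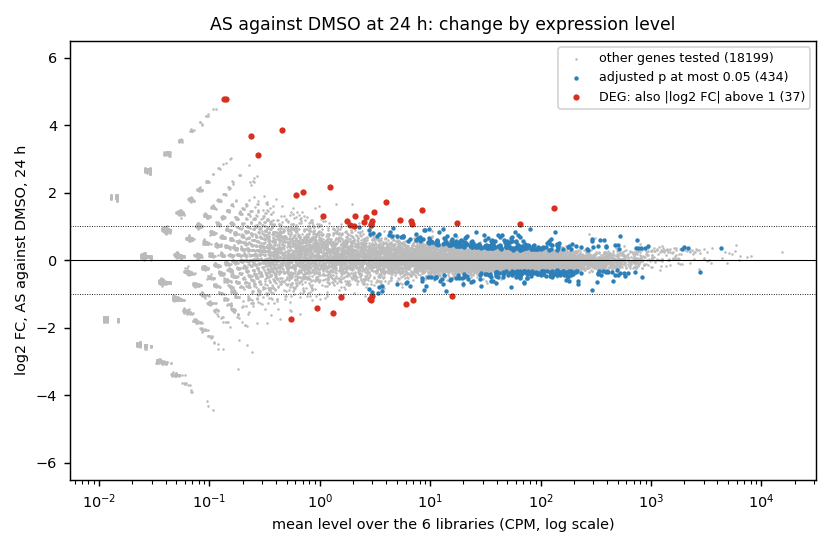
Log2 FC of AS against DMSO at 24 h (vertical axis) plotted over the mean level in the 6 libraries in CPM (horizontal axis, log scale) for every gene tested with a mean above 0. Red points are the 37 DEGs, blue points the other 434 genes with an adjusted p-value of at most 0.05, and dotted lines mark log2 FC of 1 and -1. The blue points lie within those lines by definition, and each has a mean of at least 1 CPM.

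The 471 genes were mostly well expressed. Of the genes tested, 10666 had a mean of at least 1 CPM over the 6 libraries. Of these, 2.54% were called higher and 1.79% lower. All 471 genes moved in the same direction in each of the 3 passages. In 466 of them (98.9%) the AS libraries did not overlap with the DMSO libraries. The call itself favours both, and the shares among all genes tested are not given here, so neither count is further support. Of the DEGs, 28 had a mean of at least 1 CPM, 20 higher and 8 lower. In 5 DEGs, all of them higher with AS, the DMSO libraries held 3 reads or fewer each, and no fold change is given for them.

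Only 1068 of the 18670 genes tested (5.72%) could be given a symbol, and 1 of the 37 DEGs was among them. Of the paired genes with at least 1 CPM, 5.02% were called, beside 4.33% of all genes at that level. The paired genes called were 44, with 28 higher and 16 lower. The 36 other DEGs can be described by identifier only.

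ENSCAFG00000020252 had the smallest p-value of all genes and is named here because of it, after its values were seen. It measured 64.6, 72.4 and 65.4 CPM with DMSO and 191, 194 and 202 CPM with AS. The AS libraries lay far above the DMSO libraries and close to each other, a 2.9-fold difference (log2 FC 1.53 ± 0.11, SE, adjusted p = 9.8e-16). At 48 h it measured 48.3, 55.3 and 43.8 CPM with DMSO and 189, 201 and 187 CPM with AS, and at 72 h 55.4, 62.6 and 56.7 CPM and 158, 162 and 167 CPM. The groups were apart at every time, in libraries that share no cells with those at 24 h.

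Of the DEGs without a paired symbol and with at least 1 CPM, ENSCAFG00000015683 and ENSCAFG00000005335 had the largest increases. ENSCAFG00000005335 measured 1.91, 1.98 and 1.69 CPM with DMSO and 6.46, 5.89 and 6.1 CPM with AS. That difference was 3.28-fold (log2 FC 1.71 ± 0.22, adjusted p = 1.6e-08), and the groups did not overlap. ENSCAFG00000015683 rose from 0.637, 0.462 and 0.178 CPM to 2.12, 1.55 and 2.44 CPM (log2 FC 2.16 ± 0.54, adjusted p = 0.03), on 2 to 9 reads per DMSO library. The largest decreases were those of ENSCAFG00000011356, from 2.19, 2.31 and 1.34 CPM to 0.765, 0.775 and 0.436 CPM (log2 FC -1.56 ± 0.35, adjusted p = 0.0034), and of ENSCAFG00000006965. The latter measured 9.35, 6.8 and 9.45 CPM with DMSO and 4.16, 3.02 and 3.23 CPM with AS (log2 FC -1.29 ± 0.18, adjusted p = 7.9e-08), with all AS libraries below all DMSO libraries. Without passage p126 the call on ENSCAFG00000015683 was lost, and DESeq2 did not call ENSCAFG00000011356.

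RASGEF1C, a guanine nucleotide exchange factor domain protein of the Ras family regulators, was the one DEG with a symbol. It measured 1.06, 2.31 and 1.34 CPM with DMSO and 3.57, 3.8 and 3.14 CPM with AS. Passage p126 had the highest DMSO value and the smallest difference, yet the groups did not overlap (log2 FC 1.13 ± 0.26, adjusted p = 0.0045). PLXNB2, the semaphorin receptor plexin B2, measured 7.15, 10.8 and 9.45 CPM with DMSO and 16.8, 15.7 and 19.2 CPM with AS, a 1.89-fold increase (log2 FC 0.92 ± 0.16, adjusted p = 0.00016). NRBP2, a pseudokinase, rose from 17.5, 18.1 and 20.1 CPM to 37.3, 29.1 and 32.8 CPM (log2 FC 0.83 ± 0.12, adjusted p = 2.9e-07). GOLM1, a membrane protein of the Golgi, rose from 46.2, 52.2 and 51.8 CPM to 84.9, 78.4 and 79.4 CPM (log2 FC 0.70 ± 0.12, adjusted p = 0.0002). In all of these genes the lowest AS library lay above the highest DMSO library.

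FGD2, an exchange factor for CDC42 that occurs in antigen-presenting cells, measured 29.3, 28.2 and 29.8 CPM with DMSO and 47, 39 and 42.9 CPM with AS (log2 FC 0.56 ± 0.11, adjusted p = 0.00022). RGL2, an effector of Ras that activates Ral, rose by a log2 FC of 0.46 (adjusted p = 0.0011), from 49.8, 50.8 and 55.8 CPM to 77.3, 68.2 and 69.2 CPM. It ranked below the 12 largest rises and is named from the 44 paired genes called, after its values were seen. PLA2G6, a calcium-independent phospholipase A2, rose from 15.3, 16.2 and 13.5 CPM to 24.8, 19.8 and 21.3 CPM (log2 FC 0.54 ± 0.12, adjusted p = 0.0043). HACD4, a dehydratase of fatty acid elongation, rose from 17.8, 14.2 and 14.9 CPM to 25.6, 21.7 and 22.2 CPM (log2 FC 0.57 ± 0.13, adjusted p = 0.0044). The AS and DMSO libraries of each of these 4 genes were apart. Without p128 only FGD2 of them was still called, and without p121 PLA2G6 and RGL2 were not.

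The other genes among the 12 largest called rises were WDR27, a WD-repeat protein, with a log2 FC of 0.68 ± 0.11, KIF5A, a kinesin motor, with 0.56 ± 0.16, PODXL, a sialomucin of the cell surface, with 0.51 ± 0.14, CTDSP2, a small phosphatase that acts on the RNA polymerase II tail, with 0.49 ± 0.10, and WBP2NL with 0.48 ± 0.13. Their adjusted p-values ran from 1.3e-05 for WDR27 to 0.032 for KIF5A. Without p128 only WDR27 of these was still called, and without p126 WBP2NL was not. Of the 44 paired genes called, 43 had AS and DMSO libraries that did not overlap, which the call itself favours. The exception was RDH5, a retinol dehydrogenase (13.2, 11.7 and 12 CPM with DMSO, 20.5, 12.9 and 18.4 CPM with AS). The share over all genes tested is not given here, so the count is no further support. The same holds where libraries of a single called gene are said to be apart.

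Smaller rises were called in SQSTM1, GSDMD and SUN2, the last 2 named after their values were seen. SQSTM1, the autophagy receptor p62, measured 74.8, 76 and 69.4 CPM with DMSO and 102, 92.3 and 100.2 CPM with AS (log2 FC 0.42 ± 0.10, adjusted p = 0.0063). GSDMD, the pore-forming gasdermin of pyroptosis, rose from 67.6, 66.9 and 67.4 CPM to 90.2, 86.7 and 92.6 CPM (log2 FC 0.42 ± 0.10, adjusted p = 0.0078). SUN2, which links the inner nuclear membrane to the cytoskeleton, rose from 155, 161 and 167 CPM to 223, 225 and 219.7 CPM (log2 FC 0.47 ± 0.09, adjusted p = 0.00021). In these genes all AS libraries lay above all DMSO libraries. Without p128 only SUN2 of them was still called.

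**Figure D2:**
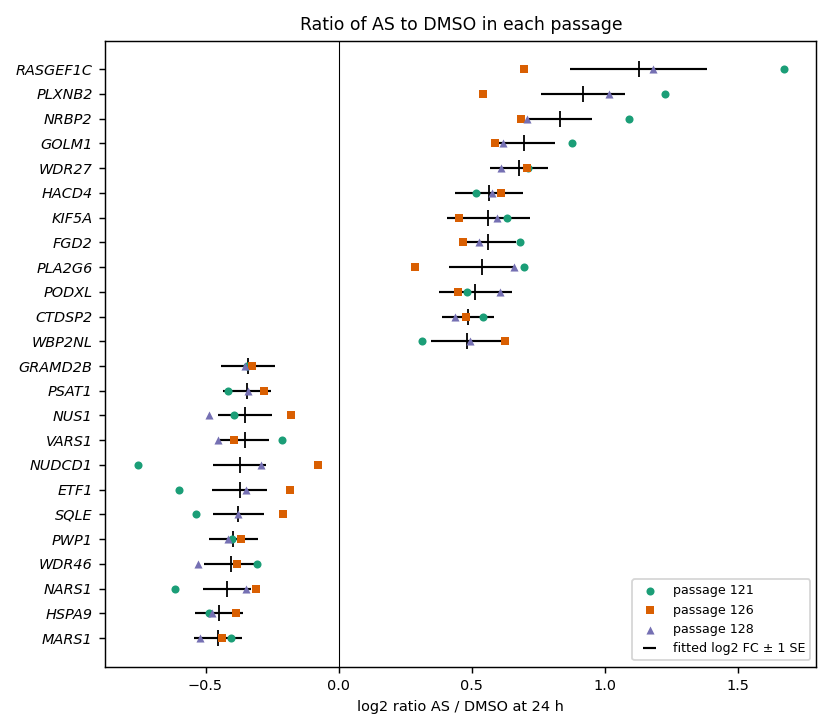
Log2 ratio of AS to DMSO at 24 h within passage p121 (circles), p126 (squares) and p128 (triangles) for the 12 largest rises and the 12 largest falls among called genes with a symbol. Black bars give the fitted log2 FC ± 1 SE. Every point lies on the side of its call, with the widest scatter in RASGEF1C and the smallest ratios of NUDCD1, ETF1 and SQLE in passage p126.

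MARS1, HSPA9 and NARS1 had the largest decreases among the called genes with a symbol. MARS1, the methionyl-tRNA synthetase, measured 146, 149.7 and 149 CPM with DMSO and 111, 110.4 and 104 CPM with AS, a log2 FC of -0.45 ± 0.09 (adjusted p = 0.00061). NARS1, the asparaginyl-tRNA synthetase, fell from 245, 223 and 213 CPM to 159.9, 179.9 and 168 CPM (log2 FC -0.42 ± 0.09, adjusted p = 0.0016). VARS1, the valyl-tRNA synthetase, fell from 444, 471 and 466 CPM to 383, 359 and 340.4 CPM (log2 FC -0.35 ± 0.09, adjusted p = 0.019). In each of the 3 synthetases every AS library lay below every DMSO library. XPOT, which exports tRNA from the nucleus, fell from 388, 368 and 368 CPM to 276, 309 and 313 CPM (log2 FC -0.33 ± 0.09, adjusted p = 0.025). PSAT1, the aminotransferase of serine synthesis, fell from 207, 218 and 208 CPM to 155, 179.7 and 164 CPM (log2 FC -0.35 ± 0.09, adjusted p = 0.017).

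Those 5 genes made up the calls in the list of amino acid, one-carbon and tRNA synthetase genes. Of 12 members tested, 0 rose and 5 fell (41.7%, beside 1.03% of all genes tested and 1.79% of those with at least 1 CPM). The median log2 FC was -0.30 against 0.01 over all genes. This list and those below were chosen with earlier results of these data known, so their shares describe the members and are no test of a list. SHMT2, the mitochondrial serine hydroxymethyltransferase, measured 314, 321 and 315 CPM with DMSO and 269, 263 and 252 CPM with AS (log2 FC -0.28 ± 0.10, adjusted p = 0.11). ATF4, the transcription factor that controls many genes of this kind, measured 831, 759.6 and 709.6 CPM with DMSO and 834, 662 and 683 CPM with AS. Its groups overlapped (log2 FC -0.08 ± 0.11, adjusted p = 0.83). GLDC and GCAT, at under 1 CPM, had log2 FC of 1.21 ± 0.90 and -0.49 ± 0.44, and PYCR3 one of -0.10 ± 0.09, and none of them passed. Left-out passages moved the count of 5 to between 1 (without passage p128) and 4 (without passage p126).

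In the list of sterol and lipid metabolism, 3 of 17 members fell (17.6%, beside 1.03% of all genes) and 0 rose, while the median log2 FC of the list was 0.007, beside 0.014 over all genes. SQLE, the squalene epoxidase of cholesterol synthesis, measured 764, 660.5 and 695 CPM with DMSO and 527, 571 and 535 CPM with AS (log2 FC -0.38 ± 0.10, adjusted p = 0.015). ACAT2, the cytosolic thiolase at the head of that pathway, fell from 255, 215 and 224 CPM to 200.2, 183 and 169 CPM (log2 FC -0.33 ± 0.09, adjusted p = 0.032). NUS1, a subunit of the enzyme that makes dolichol from the same precursors, fell from 45.1, 44.8 and 46.6 CPM to 34.3, 39.5 and 33.2 CPM (log2 FC -0.35 ± 0.10, adjusted p = 0.037). The groups were apart in all 3. KDSR, an enzyme of sphingolipid synthesis, had a log2 FC of 0.36 ± 0.17, PPARD of -0.22 ± 0.15, PPARA of -0.72 ± 0.68 and ERLIN1 of 0.10 ± 0.11, and none passed. Without passage p121 and without passage p128 none of the 3 decreases passed the test, and without passage as a term 1 did.

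HSPA9, the mitochondrial HSP70 chaperone, measured 551, 548 and 531 CPM with DMSO and 393, 419.6 and 381 CPM with AS, with the groups well apart (log2 FC -0.45 ± 0.09, adjusted p = 0.00056). PWP1 and WDR46, both proteins of ribosome biogenesis, fell by a log2 FC of -0.40 ± 0.09 (adjusted p = 0.0054) and -0.40 ± 0.10 (adjusted p = 0.0099). PWP1 measured 105, 107 and 104 CPM with DMSO and 79.4, 82.8 and 78 CPM with AS. ETF1, the release factor that ends translation, fell from 54.2, 50.8 and 52.1 CPM to 35.7, 44.8 and 40.9 CPM (log2 FC -0.37 ± 0.10, adjusted p = 0.025). NUDCD1 (-0.37 ± 0.10) and GRAMD2B (-0.34 ± 0.10) completed the 12 largest falls.

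In the list of ribosome and translation genes, of 23 members, 2 rose (8.7%, beside 1.49% of all genes) and 0 fell, with a median log2 FC of 0.11. EEF1D, a subunit of the exchange factor of elongation, rose from 820.1, 807 and 810.4 CPM to 1109, 1054 and 1093 CPM (log2 FC 0.42 ± 0.10, adjusted p = 0.0068). RPL10A, a protein of the large ribosomal subunit, rose from 685, 658 and 682 CPM to 863, 847 and 884 CPM (log2 FC 0.36 ± 0.10, adjusted p = 0.021). RPL3 had a log2 FC of 0.30 ± 0.09 (adjusted p = 0.07) and RPS6 one of 0.25 ± 0.10 (adjusted p = 0.18), and in both the AS libraries lay above the DMSO libraries. UTP20 and RBM28, which act in ribosome assembly, had log2 FC of -0.30 ± 0.10 and -0.32 ± 0.10 (adjusted p = 0.1 and 0.068), with the AS libraries below. Ribosomal protein genes have many pseudogene copies, so their counts are uncertain, and the larger share of the 50 most abundant genes with AS stands beside these rises. Its part in them was not tested. Without p128 no member of the list was called, and a fit of the 6 libraries alone called 10 higher and 3 lower. Over all genes that fit called 1144 higher and 1140 lower, where the main fit called 278 and 193. Larger list counts thus come with that fit.

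**Figure D3:**
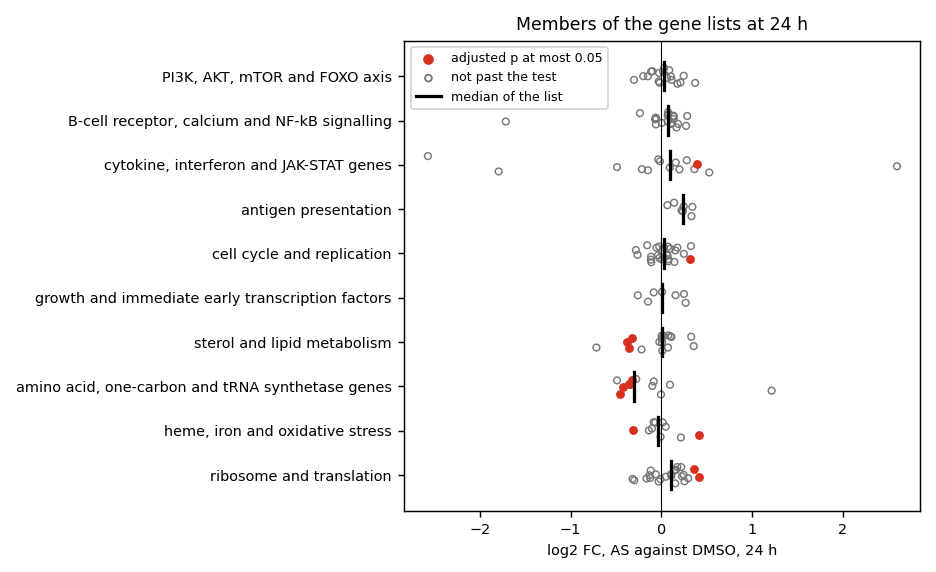
Log2 FC of AS against DMSO at 24 h for each tested member of the 10 gene lists, one row per list, with random vertical scatter. Red points passed an adjusted p-value of 0.05, open points did not, and black bars mark the median of each list. The amino acid and tRNA synthetase list has 5 red points left of 0 and the sterol list 3, while the PI3K and BCR lists have none.

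No member of the list for the PI3K, AKT, mTOR and FOXO axis passed the test among 18 tested, and the median log2 FC was 0.03. The list was drawn from the genes with a symbol. It does not hold PIK3CG, PIK3CD, PIK3R5, PIK3R6, an AKT gene or a FOXO gene, so the axis was read only in part. DESeq2 and the fit without p121 called 1 member lower, and a fit of the 6 libraries alone 1 higher and 3 lower. Over all genes DESeq2 called 406 higher and 384 lower and the 6 libraries alone 1144 and 1140, beside 278 and 193 in the main fit. PIK3R1, the regulatory subunit of class I PI3K, measured 66.3, 64 and 64.8 CPM with DMSO and 62.4, 64.3 and 64.7 CPM with AS, with overlapping groups (log2 FC -0.03 ± 0.09, adjusted p = 1). The smallest unadjusted p-value was that of PRR5, a component of mTOR complex 2, which measured 140.4, 158 and 161 CPM with DMSO and 136, 119 and 119 CPM with AS (log2 FC -0.30 ± 0.09, adjusted p = 0.064). INPP5D, the lipid phosphatase SHIP1, had a log2 FC of -0.15 ± 0.10 and PHLPP1, a phosphatase of AKT, of 0.18 ± 0.11. FBXO32 and SGK1, both known FOXO targets in other cells, had log2 FC of 0.37 ± 0.39 and -0.11 ± 0.23. FBXO32 lay near 1 CPM in every library (0.991, 0.727 and 0.624 with DMSO, 1.02, 0.62 and 1.48 with AS), so its estimate is wide.

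The list of BCR, calcium and NF-kB genes likewise had no call among 20 members (median log2 FC 0.08). It does not hold BTK, SYK, LYN, CD79A or CD79B. IRF5, a transcription factor downstream of Toll-like receptors, had a log2 FC of 0.28 ± 0.09 and DGKA, a diacylglycerol kinase, of 0.27 ± 0.09, with adjusted p-values of 0.067 and 0.069. With DESeq2 and with filterByExpr, an edgeR filter on low counts, 2 members of the list were called higher. Over all genes these settings called 406 and 329 higher, beside 278 in the main fit. BCL2, the inhibitor of apoptosis, measured 21.4, 19.2 and 19.6 CPM with DMSO and 21, 20.1 and 22.1 CPM with AS, with overlap (log2 FC 0.07 ± 0.12). NFATC1, a calcium-dependent transcription factor, had a log2 FC of -0.06 ± 0.10, CYTH4 of 0.18 ± 0.10 and TAB2 of 0.13 ± 0.10.

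MYC, the growth-promoting transcription factor, measured 123, 129.6 and 156 CPM with DMSO and 164, 136 and 155 CPM with AS. The groups overlapped (log2 FC 0.16 ± 0.10, adjusted p = 0.55). MYB had a log2 FC of 0.25 ± 0.11 (adjusted p = 0.29), and NAB2, a corepressor of EGR proteins, of -0.26 ± 0.13 (adjusted p = 0.39). No member of the 7 growth and immediate early factors was called, and their median log2 FC was 0.01. A fit of the 6 libraries alone called 2 higher, and 1144 over all genes.

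One member rose in each of 3 further lists. Of all genes tested 1.49% were called higher and 1.03% lower, and of those with at least 1 CPM 2.54% and 1.79%. A single call among so few members is no result about a list. IRF1, a transcription factor of the interferon response, was the call among 15 cytokine, interferon and JAK-STAT genes (6.67%), rising from 34.6, 36.3 and 37.3 CPM to 44.4, 46.7 and 50.5 CPM (log2 FC 0.39 ± 0.10, adjusted p = 0.02). It was not called without p126 or without p128. The 6 libraries alone gave 3 calls, all higher, in a fit that called 1144 genes higher. PIM1 (0.36 ± 0.14), IRAK3 (0.53 ± 0.27), STAT2 (0.16 ± 0.10) and IFNGR1 (-0.15 ± 0.09) did not pass. NCAPH2, a subunit of condensin II, was the call among 27 cell cycle and replication genes (3.7%), rising from 139.6, 139 and 152 CPM to 182, 174 and 181 CPM (log2 FC 0.32 ± 0.09, adjusted p = 0.026). Without p121, p126 or p128 its adjusted p was 0.15, 0.11 and 0.39 and no member of the list was called. DESeq2 called 3 higher and 1 lower, beside 406 and 384 over all genes. The list's median log2 FC was 0.03, and MCM9 (0.33 ± 0.11), CCND3 (0.25 ± 0.09), CDC23 (-0.26 ± 0.09) and HAUS6 (-0.28 ± 0.15) did not pass. In the list of heme, iron and oxidative stress SQSTM1 rose and SOD2, the mitochondrial superoxide dismutase, fell, from 117, 112 and 115 CPM to 83.9, 97.3 and 96.2 CPM (log2 FC -0.31 ± 0.09, adjusted p = 0.048), 1 of 10 members in each direction. Neither was called without p128, and SOD2 was also not called without p121, without the passage term or with all 36 libraries. OXR1 had a log2 FC of 0.21 ± 0.10, TXN2 of -0.14 ± 0.10, SCO2 of -0.10 ± 0.12 and FECH of -0.07 ± 0.11.

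Genes of antigen presentation had positive log2 FC in all 7 members (median 0.24), but none passed the test. DESeq2 called 1 of them higher, as did the fits without p121 and without p126. A fit of the 6 libraries alone called 5 higher, and 1144 over all genes. DLA-DRA, a chain of the class II molecule, measured 2702, 2672 and 2630.5 CPM with DMSO and 3234, 3397 and 3525 CPM with AS, with the groups apart (log2 FC 0.34 ± 0.11, adjusted p = 0.07). DLA88, the class I heavy chain, measured 57.1, 65.7 and 59.9 CPM with DMSO and 79.3, 72.4 and 78.7 CPM with AS (log2 FC 0.33 ± 0.10, adjusted p = 0.057). DLA-DOA and TAP1 had log2 FC of 0.25 ± 0.11 and 0.22 ± 0.09. At the later times the list's median was -0.12 at 48 h and -0.17 at 72 h, when DLA-DRA (-0.40), DLA-DQA1 (-0.38) and DLA-DOA (-0.55) were called lower and TAPBP (0.37) higher.

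The passages were compared as separate repeats of the experiment. Across the 10666 genes with at least 1 CPM, the log2 ratios of AS to DMSO correlated with r = 0.41 between passages p121 and p126, r = 0.42 between p121 and p128 and r = 0.52 between p126 and p128. These correlations are across genes, which are not independent replicates. Among genes with at least 10 CPM they were 0.53, 0.51 and 0.73. The median log2 ratio of the 278 higher genes was 0.56, 0.42 and 0.50 in passages p121, p126 and p128, and that of the 193 lower genes -0.48, -0.38 and -0.45. No label names a sequencing run, but the sample-sheet numbers imply a first and a second one. At 24 h the AS and DMSO libraries of passages p121 and p126 were in the first and those of p128 in the second. The ratios at 24 h are thus within one implied run. At 48 h the AS library of p126 was in the second implied run and its DMSO library in the first, so that comparison is partly across runs.

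Calls made without a passage were then followed in that passage, which had no part in them. Of 489 genes called without passage p121, 448 (91.6%) had the same sign in passage p121, with a median log2 ratio in the direction of the call of 0.37. The counts were 390 of 400 (97.5%, median 0.36) for passage p126 and 177 of 180 (98.3%, median 0.61) for passage p128. Of the DEGs called this way, 37 of 46, 34 of 36 and 41 of 43 kept their sign in passages p121, p126 and p128. The median ratios in the left-out passage were below the median fitted changes of the same genes, which were 0.50, 0.51 and 0.67.

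The comparisons of AS with DMSO at 48 h and 72 h share no library with that at 24 h. At 48 h, 19 genes (0.102%) were DEGs higher with AS and 95 (0.509%) lower, and at 72 h 133 (0.712%) and 276 (1.48%). Of the 37 DEGs of 24 h, 10 were DEGs in the same direction at 48 h, 5 of 27 higher and 5 of 10 lower. At 72 h these were 11, of which 8 were higher and 3 lower, and 8 DEGs were called at all 3 times. No DEG of 24 h was a DEG in the opposite direction later. Of the 27 higher DEGs, 24 had a positive log2 FC at 48 h and 18 at 72 h, and of the 10 lower ones 10 and 7 had a negative one. Without the 5 genes with too few reads, the median log2 FC of the higher DEGs went from 1.18 to 0.69 and 0.46 over the successive times. That of the lower DEGs was -1.17, then -1.003 and, at 72 h, -0.39.

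At an adjusted p-value of 0.05, 66 of the 278 higher genes (23.7%) were also called higher at 48 h, where 1.56% of all genes were, and 1 was called lower. Of the 193 lower genes, 65 (33.7%) were called lower at 48 h, beside 2.1% of all genes, and 0 higher. At 72 h, 79 (28.4%) of the higher genes were called higher again and 33 (11.9%) lower, beside 6.8% higher and 6.4% lower of all genes. Of the lower genes, 54 (28%) were called lower at 72 h and 23 (11.9%) higher. The median log2 FC of the 278 genes was 0.24 at 48 h and 0.10 at 72 h, and that of the 193 genes -0.23 and -0.03.

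Some genes with a symbol were called in one direction at every time. RASGEF1C (log2 FC 1.13, 0.91 and 1.14 at 24, 48 and 72 h), NRBP2 (0.83, 0.53 and 0.67), GOLM1 (0.70, 0.61 and 1.05) and CTDSP2 (0.49, 0.36 and 0.47) were called higher at each time, and GRAMD2B (-0.34, -0.44 and -0.44), MARS1 (-0.45, -0.38 and -0.63) and PSAT1 (-0.35, -0.37 and -1.95) lower at each time. The PSAT1 difference was far larger at 72 h than at 24 h. GRAMD4, a protein of membrane contact sites, was also called higher at each time (0.36, 0.38 and 0.59). GOLM1 measured 31.3, 25.9 and 28.7 CPM with DMSO at 72 h and 60.3, 60 and 58.1 CPM with AS, groups that were further apart than at 24 h.

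Other genes lost or turned their difference. PLXNB2 had log2 FC of 0.92, 0.10 and -0.34 at the 3 times, and at 72 h measured 22.8, 20 and 19.4 CPM with DMSO and 16.3, 19.6 and 13.9 CPM with AS, with overlap. PLA2G6 was called lower at 72 h (0.54, 0.03 and -0.55), as was PODXL (0.51, 0.28 and -0.56). VARS1, called lower at 24 h, was called higher at 72 h (-0.35, -0.10 and 0.48), with 235, 226 and 264 CPM with DMSO and 285, 350.5 and 377 CPM with AS, and so were WDR46 (-0.40, -0.11 and 0.52) and NUS1 (-0.35, -0.06 and 0.33). HSPA9 had log2 FC of -0.07 and -0.03 at the later times, near 0.

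**Figure D4:**
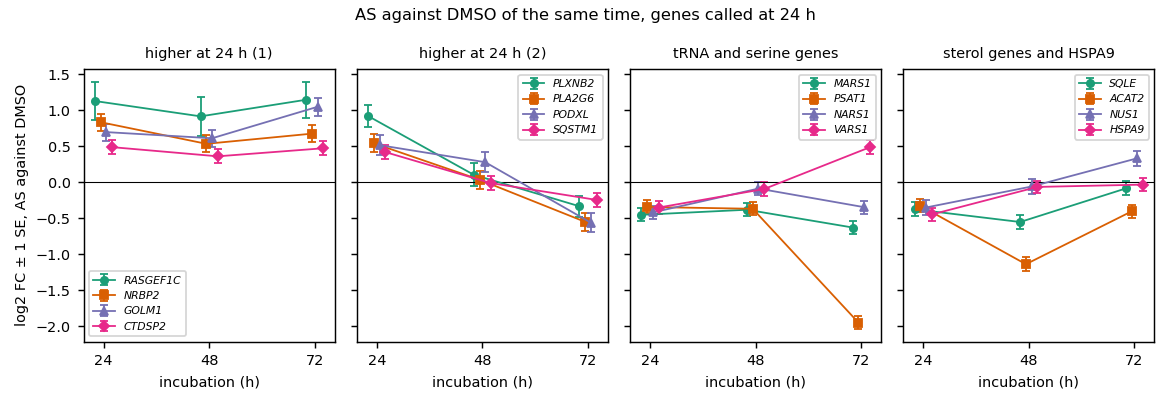
Log2 FC ± 1 SE of AS against DMSO of the same incubation time (vertical axis) at 24, 48 and 72 h (horizontal axis) for 16 genes called at 24 h, 4 per panel. RASGEF1C, NRBP2, GOLM1 and CTDSP2 stay above 0 at every time, PLXNB2, PLA2G6, PODXL and SQSTM1 pass from above to below 0, and PSAT1 drops to -1.95 at 72 h.

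The control level itself moved with time in some genes, of which 4 are given, chosen after their values were seen. PSAT1 measured 207, 218 and 208 CPM with DMSO at 24 h and 575, 661 and 689 CPM at 72 h, whereas with AS it measured 155, 179.7 and 164 CPM at 24 h and 157, 172 and 169 CPM at 72 h. The AS level was thus nearly the same at both times and the DMSO level about 3 times higher at 72 h. ENSCAFG00000006965 measured 39.2, 43.5 and 39.9 CPM with DMSO and 5.57, 5.25 and 4.86 CPM with AS at 72 h, so that both levels lay above those at 24 h, the DMSO level by more. ACAT2 measured 478, 526 and 569 CPM with DMSO at 48 h and 257, 235 and 225 CPM with AS, with the groups far apart (log2 FC -1.14, adjusted p = 5.5e-19). MYC, not called at 24 h, measured 269, 278 and 267 CPM with DMSO at 72 h and 189.7, 177 and 167 CPM with AS (log2 FC -0.61, adjusted p = 6.2e-07).

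The difference between the AS effects at 72 h and 24 h was tested directly, as a contrast of both. Of the 37 DEGs, 15 differed past both limits, as did 1.74% of all genes, and in 14 of them the 72 h effect was smaller in the direction of 24 h or opposite to it. Since the 24 h libraries that chose these genes also enter the contrast, such a shift is partly built into the selection. The effects at 48 h and 24 h differed past both limits in 0 of the 37 DEGs.

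The other treatments at 24 h share the DMSO libraries with AS, so their values are given side by side. In the 22 higher DEGs with enough reads, AS gave a median log2 FC against DMSO of 1.18, Ibr of 1.38 and the combination of 2.18. In the 10 lower ones these were -1.17, -0.81 and -1.99. RASGEF1C measured 3.38, 3.25 and 3.18 CPM with Ibr and 6.24, 7.61 and 5.91 CPM with Ibr + AS. The AS libraries were close to those with Ibr and below those with both. SQLE measured 505, 501 and 546 CPM with Ibr and 283, 290.4 and 255 CPM with Ibr + AS, beside 527, 571 and 535 CPM with AS. HSPA9 measured 384, 372 and 348 CPM with Ibr and 257, 275 and 249 CPM with both, again with AS near Ibr and above the combination.

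Ibr + AS was compared with AS directly. Of the 37 DEGs, 15 differed past both limits, beside 4.76% of all genes, and 14 of the 15 lay further from DMSO in the direction of AS. Of the 44 paired genes called with AS, 39 differed at an adjusted p-value of 0.05, beside 24.8% of all genes, and 38 of these lay further in the direction of AS. The exception was PODXL, with a log2 FC against DMSO of 0.51 with AS and 0.04 with Ibr + AS. MYC, not called with AS, measured 426, 325 and 324 CPM with Ibr + AS and 183, 169 and 169 CPM with Ibr, and differed between Ibr + AS and AS by a log2 FC of 1.24 (adjusted p = 2e-19). The AS libraries that chose the genes enter this comparison too.

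Ibr at 1 µM and AS at 5 µM were also set against each other directly. Past both limits, 6 of the 37 DEGs differed between them, a larger share than the 0.209% of all genes. The AS libraries that chose the DEGs enter this comparison as well. At an adjusted p-value of 0.05 none of the 44 paired genes differed, beside 0.718% of all genes, so low a share that 0 of 44 is no result about them. This does not show that the inhibitors acted alike on the 44 genes: for PLXNB2 the log2 difference of Ibr less AS was 0.35, and for SQSTM1 it was -0.35 (adjusted p = 0.072). ENSCAFG00000020252 was the clearest difference, with 67.6, 79.5 and 80.8 CPM with Ibr, near the DMSO libraries, and 335, 261 and 238 CPM with Ibr + AS, above the AS libraries. The log2 FC of Ibr against AS was -1.37 (adjusted p = 6.3e-14). In the opposite sense EGR1, an immediate early transcription factor, measured 136, 111 and 109 CPM with DMSO and 129.5, 98.6 and 127.8 CPM with AS, but 44.9, 15.9 and 12.4 CPM with Ibr and 40.1, 11.2 and 12.8 CPM with Ibr + AS. Its log2 FC was 0.01 with AS and -2.47 with Ibr, a difference with an adjusted p-value of 0.037, and EGR1 is named after its values were seen.

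**Figure D5:**
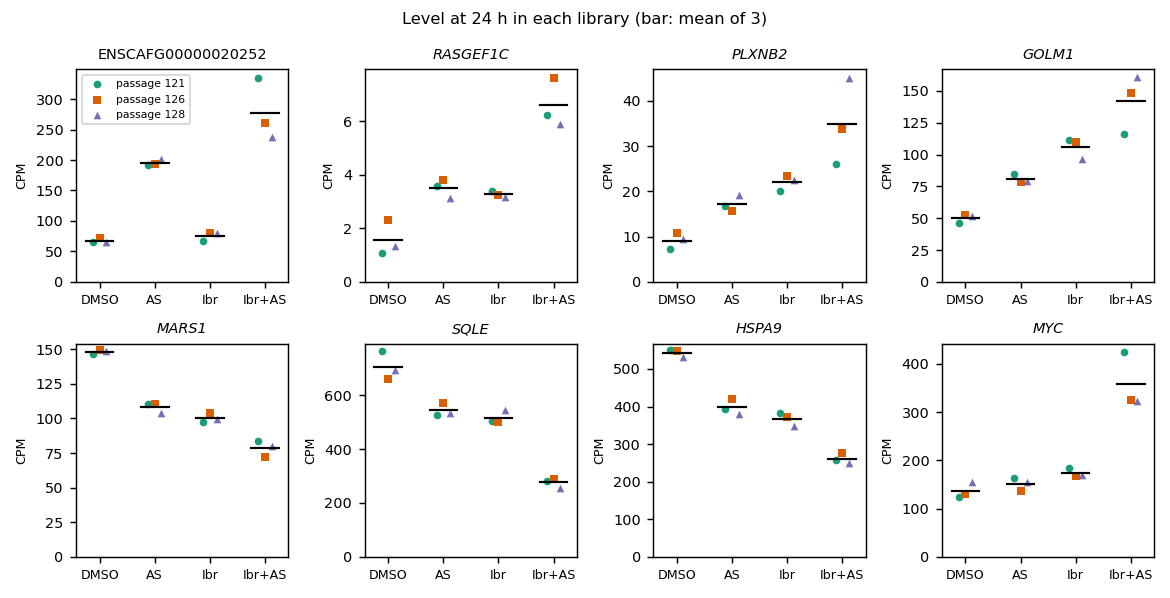
Level in CPM (vertical axes, from 0) at 24 h in each library of the 4 treatments for 8 genes. Circles, squares and triangles are passages p121, p126 and p128 and bars are means of 3. ENSCAFG00000020252 is raised with AS and Ibr + AS but lies near DMSO with Ibr, while RASGEF1C, PLXNB2 and GOLM1 are raised and MARS1, SQLE and HSPA9 lowered with either inhibitor and further with both.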

How the data were processed

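RNA of CLBL-1 cells was sequenced by the authors as poly-A single-end libraries. Per the submitters' processing notes and the methods, reads were mapped to CanFam3.1 with STAR 2.7.5a, and the authors deposited raw counts of reads per Ensembl gene, without normalization. The strand column kept is not given in the sources used here, so overlapping and antisense genes are uncertain.

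The tests were run with edgeR 4.0.16 and limma 3.58.1 under R 4.3.3. All genes that held 2 or more reads summed over 35 libraries, all but Ibr 72 h replicate 3, were tested with TMM factors and a robust quasi-likelihood fit with passage and group as terms, which share one estimate of the spread over all groups. DEGs had an adjusted p-value (Benjamini-Hochberg) no higher than 0.05 and a log2 FC beyond 1 in either direction. Log2 ratios per passage used a prior count of 1. Depth per library and its precision limit low genes: 3 reads correspond to about 0.2 to 0.3 CPM.

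Replicate numbers mark cells of the same passage and pair the AS and DMSO libraries. After removal of group means, libraries of one passage correlated with a median r of 0.093 (187 pairs) and libraries of different passages with -0.035 (374 pairs). AS and DMSO at 24 h gave 0.069, 0.067 and 0.084 in replicates 1, 2 and 3. No 2 of the 6 libraries were identical, and the chi-square per degree of freedom within groups was 1.93 to 6.13.

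Symbols were paired through the parts given of the study's supplementary tables (1068 genes, most of them in order of identifier). Named genes were those with a symbol among the DEGs, and the 12 largest rises and 12 largest falls with a symbol. Those rises and falls had an adjusted p-value no higher than 0.05, one direction in all passages and at least 1 CPM. List members called were named with up to 4 further members by p-value. So were 2 DEGs without a paired symbol in each direction, and PIK3R1, MYC, MYB, BCL2, NFATC1, SGK1 and FBXO32. Other genes called are named where a list or a statement needs them. The gene lists, the markers and the comparison were chosen with earlier results of these data known. The alternatives were DESeq2 1.42.0, RLE factors, filterByExpr, no filter, 36 libraries, the 6 libraries only, no passage term, each replicate left out and, added after the data had been seen, the sequencing run as a term. On simulated data, strong changes were recovered and no unchanged gene passed both limits. At the adjusted p-value alone, unchanged genes passed more often than the nominal level with the limit of 2 reads used for the values reported, but not with filterByExpr, so genes called at the adjusted p-value alone may hold more false calls than its level. No promoter sequence was used here.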

Additional observations from a re-analysis of the deposited data

Results flagged for a closer look

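For 5 genes named here and called at 24 h, the effect of AS against DMSO differed between 72 h and 24 h past both limits in the test of that difference. The log2 difference, 72 h less 24 h, was -1.25 for PLXNB2, -1.09 for PLA2G6 and -1.08 for PODXL, which were higher with AS at 24 h. It was -1.61 for PSAT1 and -1.68 for ENSCAFG00000006965, which were lower with AS at 24 h and further lower at 72 h. The 24 h libraries that chose these genes enter the difference. Groups of 3 libraries were not tested for single libraries that stand apart.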

How the results depend on the processing

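DESeq2 gave 33 DEGs and 790 genes at the adjusted p-value, and a fit of the 6 libraries alone, whose spread is estimated from these libraries only, 78 and 2284. With filterByExpr these were 42 and 614, with RLE factors 37 and 467, without a filter 37 and 444, with all 36 libraries 35 and 440, and with the sequencing run as a term, chosen after seeing the data, 39 and 480. Of the 471 genes, 461 were also called with DESeq2, 451 with filterByExpr and 471 in the 6 libraries alone, and in each alternative run they kept their sign where they were tested. Without passage as a replicate block there were 34 DEGs and 320 genes at the adjusted p-value, 319 of them among the 471, and no count moved by over 1.5 times. With all 36 libraries 6 of the 24 h DEGs were also called at 48 h, against 10. With each replicate left out, DEGs ranged from 36 to 46 and genes at the adjusted p-value from 180 (without p128) to 489. The 24 h DEGs also called at 48 h ranged from 6 (without p126) to 15 and at 72 h from 9 to 16, those whose effect differed between 72 h and 24 h from 14 to 24 (without p121), and those that differed between Ibr + AS and AS from 11 to 26 (without p128). Of 49 named genes called, 35 were not called without p128, 21 without p121 and 9 without p126, and none changed sign. Among genes with at least 10 CPM the correlation between passages was 0.53 (p121 and p126), 0.51 (p121 and p128) and 0.73 (p126 and p128). The causes were not tested. Genes with a few reads per library can be described by counts only.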
